A study of Mus musculus with 9 samples.

Results

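Enteroendocrine cells are the hormone-making cells scattered through the lining of the gut. The genes described here are 10 regulators and granule proteins of these cells, out of 54532 genes in the deposited count table. They were chosen by symbol, with earlier results of these data known. They are the granins Chga, Chgb, Scg2 and Scg3, the prohormone-processing genes Cpe, Pcsk1 and Pcsk1n, and the transcription factors Neurod1, Isl1 and Pax6. All 10 passed the filter on low counts. The samples were duodenum from 5 mice labelled Pla2g12b mutant and 4 WT mice, all male C57BL/6, matched in age and kept on chow for 3 months. PLA2G12B is a secreted phospholipase A2 family member without catalytic activity that acts in loading lipoproteins with lipid. The series title speaks of a dominant-negative substitution in this gene. The exact change in these mice, and whether 1 or both copies carried it, is left unnamed in the sample labels.

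As background, peptide hormones are packed into dense-core granules, and granins are acidic proteins that help these granules form. PCSK1 cuts prohormones, CPE trims the exposed basic residues, and the product of Pcsk1n inhibits PCSK1. NEUROD1 acts in endocrine progenitors downstream of NEUROG3, and ISL1 and PAX6 act in the specification of hormone-making cells. CHGA is the classical marker of enteroendocrine cells and is abundant in the enterochromaffin cells, which make serotonin. None of the 10 genes is exclusive to the gut epithelium: pancreatic islets express most of them, and enteric neurons make several of the granule proteins.

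Libraries held 16245982 to 17959658 counted reads in mutants and 16119639 to 24009157 in WT, so 3 reads correspond to at most 0.186 CPM, counts scaled to library size. The libraries fell into close pairs, mutants 2 and 3, mutants 4 and 5, WT 1 and 2, and WT 3 and 4, with mutant 1 apart. The chi-square per degree of freedom between the counts was 2.31 to 3.41 in these 4 pairs and 29.2 to 67.8 in the other 12 pairs of a genotype. The pairs differed more than sampling noise, and the labels number separate mice, so all 9 libraries were kept. The p-values measure the spread between these libraries and are too small if a close pair came from 1 mouse. Calls are therefore also given from counts added up within each close pair (3 mutant against 2 WT units). Pla2g12b itself stood at 102.3 to 133.8 CPM in mutants and 75.6 to 104.2 CPM in WT, which does not check a change within the protein. Epithelial markers, 10 genes in all, were present in every library and summed to 11150 to 13220 CPM in mutants and 8337 to 10800 CPM in WT. Pancreatic acinar genes took 0.0591% to 0.157% of reads in mutants and 4.47% to 9.13% in WT, with WT 3 and 4 the highest. Of 26 acinar genes, 25 were called lower in mutants. Most of the mutant share came from Reg1, at 190.1 to 1229 CPM, and Zg16, at 160.9 to 372.6 CPM. Ctrb1, the acinar gene highest in WT, held 0 to 0.2945 CPM in mutants and 8064 to 18290 CPM in WT.

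The promoters of Chga, Chgb, Scg2 and Pcsk1 are shown because all 4 hold the core of the cAMP response element, the site that the factor CREB binds, and because they include Chgb, which fell, and 3 genes that were not called. Each line gives the 250 bases before the RefSeq start of the gene in GRCm38.p6, 5′ to 3′ on the gene's own strand, with TGACGT on either strand in capitals.
Chga: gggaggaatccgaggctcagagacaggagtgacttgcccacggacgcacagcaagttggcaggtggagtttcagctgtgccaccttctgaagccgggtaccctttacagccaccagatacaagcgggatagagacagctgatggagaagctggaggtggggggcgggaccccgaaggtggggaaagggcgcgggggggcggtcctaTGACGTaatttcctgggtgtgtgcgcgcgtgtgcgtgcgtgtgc
Chgb: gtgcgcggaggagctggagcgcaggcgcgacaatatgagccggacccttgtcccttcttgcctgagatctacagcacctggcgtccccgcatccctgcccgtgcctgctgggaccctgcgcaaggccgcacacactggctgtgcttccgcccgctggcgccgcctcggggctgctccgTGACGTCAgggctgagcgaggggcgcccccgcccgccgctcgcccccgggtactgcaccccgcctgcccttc
Scg2: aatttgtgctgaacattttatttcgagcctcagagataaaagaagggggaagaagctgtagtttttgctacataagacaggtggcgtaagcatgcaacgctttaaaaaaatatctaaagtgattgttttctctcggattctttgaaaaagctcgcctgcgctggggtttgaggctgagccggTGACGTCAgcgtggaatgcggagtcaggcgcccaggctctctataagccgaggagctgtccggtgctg
Pcsk1: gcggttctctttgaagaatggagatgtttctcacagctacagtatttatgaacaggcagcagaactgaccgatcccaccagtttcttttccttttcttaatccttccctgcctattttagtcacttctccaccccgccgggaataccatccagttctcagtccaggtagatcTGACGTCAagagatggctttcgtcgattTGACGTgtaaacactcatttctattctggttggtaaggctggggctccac
These windows are chr12:102554691-102554940 for Chga and chr2:132781392-132781641 for Chgb, both on the plus strand, chr1:79440027-79440276 on the minus strand for Scg2, and chr13:75089607-75089856 on the plus strand for Pcsk1. TGACGT began 44 bases before the RefSeq start in Chga, 72 in Chgb, 68 in Scg2, and 78 and 50 in Pcsk1. These starts differ from those of the deposited gene coordinates. By the latter, the Chgb window lies inside the gene, and the windows of Scg2 and Pcsk1 reach into theirs. In Chgb, Scg2 and at the first site of Pcsk1 it was part of the palindrome TGACGTCA, which holds TGACGT on both strands.

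RefSeq promoter windows were found for 9 of the 10 genes, all but Cpe, with 2 windows for Pax6. TGACGT on either strand was present in 7 of these 10 windows, those of Chga, Chgb, Scg2, Pcsk1, Isl1 and both of Pax6, and in 6.47% of 32851 promoter windows of the same length. The full TGACGTCA was present in 4 of the 10, those of Chgb, Scg2, Pcsk1 and 1 of Pax6, and in 1.55% of all windows. A match describes the letters only. Among the genes with the motif Chgb alone was called, and Neurod1, which was also called lower, had none in its window.

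In the comparison of mutant with WT duodenum over all 9 libraries, Chgb and Neurod1 fell and Cpe rose, while the other 7 genes were not called. With edgeR's quasi-likelihood test and a Benjamini-Hochberg adjusted p under 0.05 as the call, 3 of the 10 genes were called, against 32.5% of all genes tested, so the share of calls was near the background. Of the lower direction, 2 of 10 stand beside 17.1% of all genes, and of the higher direction 1 of 10 beside 15.4%. The median log2 fold change, mutant over WT, was 0.07 over the 10 genes and 0.01 over all 15416 genes tested. In these bulk samples, fewer cells of a type and less RNA per cell cannot be told apart. Once the close pairs were summed, edgeR called 0 of the 10 (3 had an unadjusted p under 0.05), against 9.01% of all genes. In limma's voom with the close pair as a random block, 3 of the 10 were called, against 18.3% of all genes.

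**Figure D1:**
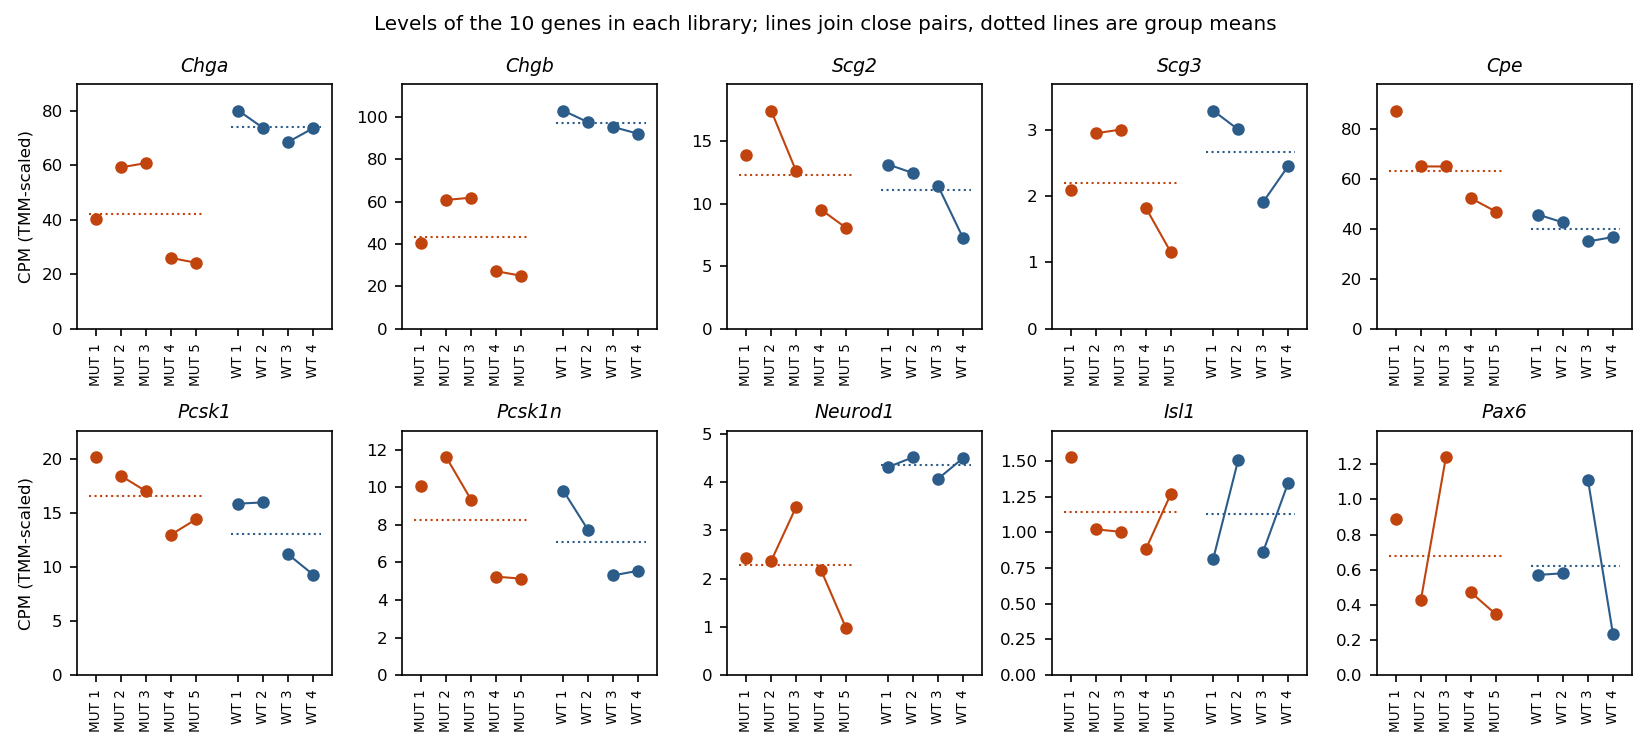
Level of each of the 10 genes in CPM (y axis, TMM-scaled, from 0) in each library (x axis), mutants in orange and WT in blue; lines join the libraries of a close pair and dotted lines are group means. Chga, Chgb and Neurod1 lay lower in all 5 mutants than in any WT library, Cpe lay higher in all 5, and the other 6 genes overlapped between the genotypes.

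Among the granins, Chgb (ENSMUSG00000027350, chromosome 2, 132781278 to 132795079, plus strand, GRCm38, protein-coding) encodes chromogranin B, a cargo and building protein of the granule. It held 40.6, 60.9, 61.9, 27.1 and 25 CPM in mutants 1 to 5, against 103.1, 97.6, 95.4 and 92.2 CPM in WT 1 to 4. Every mutant library was below every WT library, and mutants 4 and 5 were the lowest. The mean was 43.1 ± 17.7 CPM in mutants (SD, n = 5) and 97.1 ± 4.61 CPM in WT (SD, n = 4). This gave a log2 fold change of -1.17 (SE 0.27, edgeR adjusted p = 0.01). Chgb lost its call when close pairs were summed (-1.18, edgeR adjusted p = 0.0878), without WT 1 and 2 (-1.12, adjusted p = 0.0629) and without WT 3 and 4 (-1.22, adjusted p = 0.05).

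Chga (ENSMUSG00000021194, chromosome 12, 102554969 to 102565028, plus strand, GRCm38) encodes chromogranin A, the marker of these cells, and was detected in every library. It held 40.3, 59.2, 60.7, 25.9 and 24.1 CPM in mutants 1 to 5, against 80.0, 73.6, 68.5 and 73.6 CPM in WT 1 to 4. The genotypes did not overlap, which held for 4 of the 10 genes and for 30.9% of all genes tested. The mean was 42.1 ± 17.5 CPM in mutants (SD, n = 5) and 73.9 ± 4.70 CPM in WT (SD, n = 4). The log2 fold change of -0.81 (SE 0.28, 95% interval -1.44 to -0.18) did not pass the test, with an edgeR adjusted p of 0.0519. Chga was called lower in 12 of 25 alternative fits, with adjusted p from 7.41e-05 to 0.207. It stood at -0.46 without mutants 4 and 5 (edgeR adjusted p = 0.0303) and at -1.29 without mutants 2 and 3 (adjusted p = 0.000428).

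The spread of Chga and Chgb lay in the mutants. Chga averaged 60.0 CPM in mutants 2 and 3 and 25 CPM in mutants 4 and 5, a log2 difference of 1.26, and Chgb averaged 61.4 and 26.1 CPM in the same pairs, a difference of 1.24. Between the WT pairs the differences, WT 3 and 4 over WT 1 and 2, were -0.11 for Chga and -0.10 for Chgb. The 2 transcripts nevertheless stood in different proportions in the genotypes. There were 1.01, 1.03, 1.02, 1.05 and 1.04 Chgb reads per Chga read in mutants 1 to 5, against 1.29, 1.33, 1.39 and 1.25 in WT 1 to 4. The ratio was thus alike in mutants whose Chga level differed, and every mutant ratio was below every WT ratio. This ratio was chosen after its values were seen and was not tested.

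**Figure D2:**
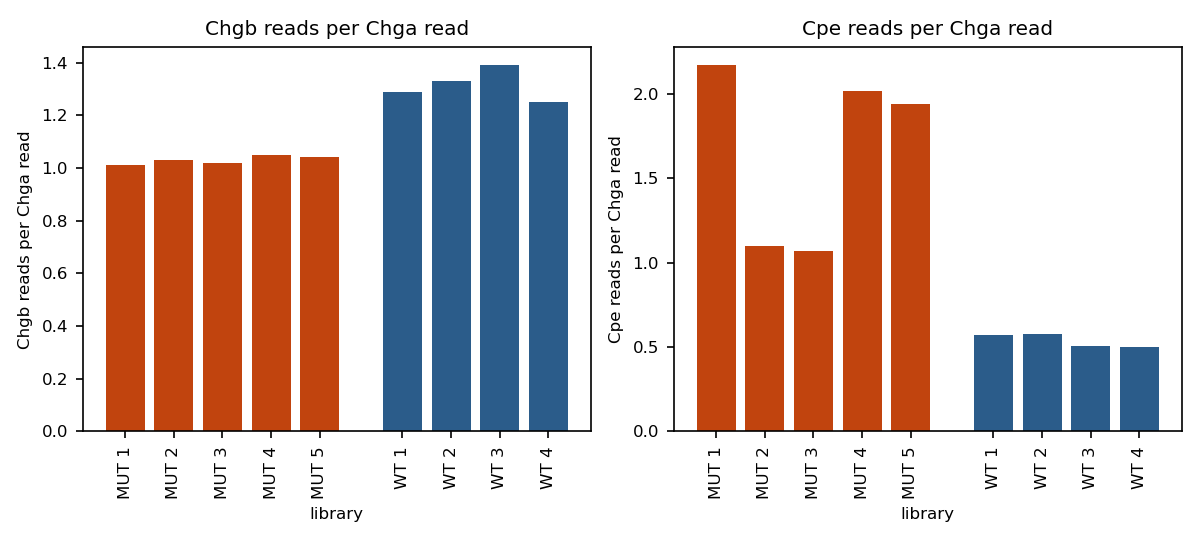
Reads of Chgb (left) and of Cpe (right) per read of Chga in each library (x axis), mutants in orange and WT in blue, bars from 0. Chgb per Chga was 1.01 to 1.05 in mutants and 1.25 to 1.39 in WT, while Cpe per Chga was 1.07 to 2.17 in mutants and 0.498 to 0.578 in WT.

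Secretogranin II, encoded by Scg2, is a granin that is also cut into the neuropeptide secretoneurin. It held 13.9, 17.5, 12.6, 9.54 and 8.08 CPM in mutants 1 to 5, against 13.1, 12.5, 11.4 and 7.25 CPM in WT 1 to 4. The groups overlapped, with a log2 fold change of 0.15 (SE 0.24, 95% interval -0.36 to 0.67, edgeR adjusted p = 0.658). Scg3, whose product tethers chromogranin A to the granule membrane, was much less abundant, at 2.10, 2.96, 3.01, 1.83 and 1.15 CPM in mutants and 3.30, 3.01, 1.91 and 2.46 CPM in WT. It also overlapped, at -0.28 (SE 0.29, 95% interval -0.91 to 0.36, edgeR adjusted p = 0.501). For both genes mutants 4 and 5 held less than mutants 2 and 3, and WT 3 and 4 less than WT 1 and 2.

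Of the processing genes, Cpe (ENSMUSG00000037852, chromosome 8, 64592542 to 64693054, minus strand, GRCm38) encodes carboxypeptidase E. It held 87.3, 65.0, 64.9, 52.2 and 46.9 CPM in mutants 1 to 5, against 45.7, 42.5, 34.9 and 36.7 CPM in WT 1 to 4. All mutants were above all WT libraries, though mutant 5 exceeded WT 1 by little. The mean was 63.3 ± 15.6 CPM in mutants (SD, n = 5) and 39.9 ± 5.02 CPM in WT (SD, n = 4). This gave a log2 fold change of 0.66 (SE 0.17, edgeR adjusted p = 0.0112). Cpe lost its call when close pairs were summed (0.75, edgeR adjusted p = 0.0865) and without WT 3 and 4 (0.52, adjusted p = 0.122). Set against the marker, there were 2.17, 1.10, 1.07, 2.02 and 1.94 Cpe reads per Chga read in mutants, and 0.571, 0.578, 0.509 and 0.498 in WT.

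Pcsk1, the convertase that opens prohormones in endocrine granules, held 20.2, 18.4, 17.0, 13.0 and 14.4 CPM in mutants 1 to 5, against 15.9, 16, 11.2 and 9.30 CPM in WT 1 to 4. Mutants 1 to 3 were above all WT libraries, and mutants 4 and 5 lay within the WT range. The log2 fold change of 0.34 (SE 0.18, 95% interval -0.06 to 0.74) was not called (edgeR adjusted p = 0.179). Pcsk1n, whose product proSAAS inhibits this enzyme, held 10.1, 11.6, 9.34, 5.24 and 5.14 CPM in mutants and 9.81, 7.71, 5.31 and 5.56 CPM in WT. Its log2 fold change was 0.21 (SE 0.28, 95% interval -0.40 to 0.83, edgeR adjusted p = 0.599). The low libraries of Pcsk1n were mutants 4 and 5 and WT 3 and 4, so the spread ran within genotypes. Pcsk1n shares 135 exon bases with Eras on the opposite strand, which had 0 reads in these libraries.

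Of the transcription factors, Neurod1 (ENSMUSG00000034701, chromosome 2, 79452521 to 79456751, minus strand, GRCm38) encodes a basic helix-loop-helix factor of endocrine differentiation. It held 2.42, 2.37, 3.49, 2.18 and 0.981 CPM in mutants 1 to 5, against 4.32, 4.52, 4.07 and 4.5 CPM in WT 1 to 4, from 17 to 59 reads per mutant library and 66 to 106 per WT library. The groups did not overlap, and mutant 5 was the lowest. The log2 fold change was -0.93 (SE 0.28, edgeR adjusted p = 0.0234), with 2.29 ± 0.891 CPM in mutants (SD, n = 5) and 4.35 ± 0.208 CPM in WT (SD, n = 4). Neurod1 lost its call when close pairs were summed (-0.91, edgeR adjusted p = 0.124), without WT 2 or WT 4 (adjusted p = 0.0545 and 0.0544), without either WT pair (adjusted p = 0.105 without WT 1 and 2, and 0.0962 without WT 3 and 4) and in voom with the close pair as a random block (-1.02, limma adjusted p = 0.139). Neurod1 shares 201 exon bases with Cerkl on the same strand, but Cerkl held 21 reads over the 9 libraries, against 522 of Neurod1.

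Isl1, a LIM homeodomain factor, and Pax6, a paired-box factor, were near the limit of these libraries. Isl1 held 1.53, 1.02, 1.00, 0.884 and 1.27 CPM in mutants and 0.815, 1.51, 0.864 and 1.35 CPM in WT, from 14 to 26 reads per library. Pax6 held 0.891, 0.430, 1.24, 0.471 and 0.346 CPM in mutants and 0.570, 0.580, 1.11 and 0.234 CPM in WT, from 4 to 21 reads per library. Both overlapped between genotypes. Isl1 was at 0.02 (SE 0.29, 95% interval -0.62 to 0.66, edgeR adjusted p = 0.969) and Pax6 at 0.12 (SE 0.49, 95% interval -0.96 to 1.20, adjusted p = 0.88). The wide interval of Pax6 goes with its few reads.

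**Figure D3:**
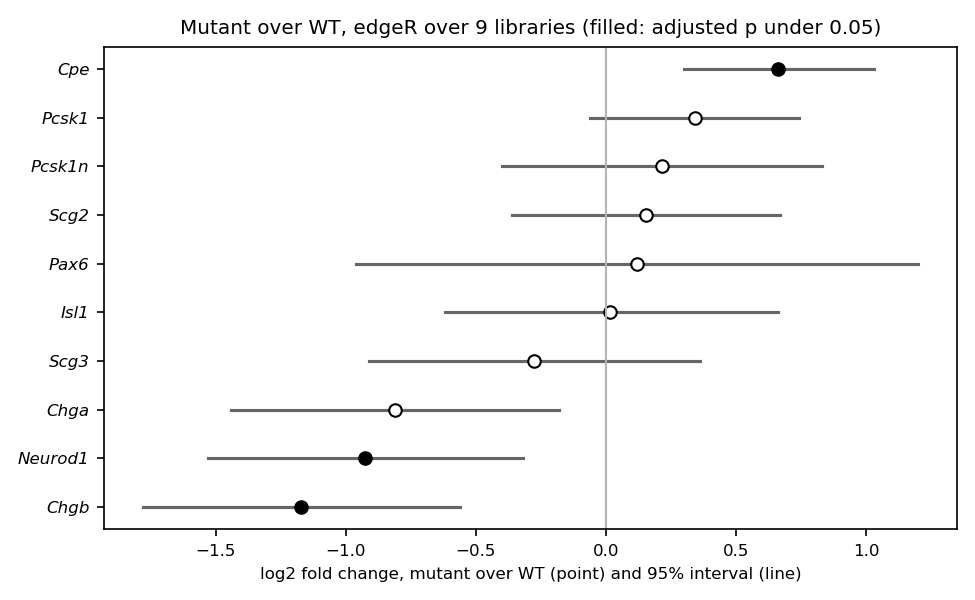
Log2 fold change, mutant over WT, of the 10 genes (points) with 95% intervals (lines), from edgeR over 9 libraries; filled points have an adjusted p under 0.05. Chgb and Neurod1 are filled on the lower side at -1.17 and -0.93, Cpe is filled on the higher side at 0.66, and Chga at -0.81 is open.

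Levels between genes were compared per length, in RPKM, reads scaled to library size and gene length. In mutants Cpe stood highest, at 24.3 ± 5.98 RPKM, followed by Chgb at 15.7 ± 6.47 and Chga at 15.3 ± 6.36 RPKM (SD, n = 5). In WT Chgb led at 35.4 ± 1.68 RPKM, then Chga at 26.8 ± 1.70 and Cpe at 15.3 ± 1.92 RPKM (SD, n = 4). In mutants the 3 leading genes overlapped within 1 SD, whereas in WT they were separated by more than that. Next came Scg2, Pcsk1n and Pcsk1, at 4.90, 3.78 and 2.96 RPKM in mutants and 4.40, 3.24 and 2.34 RPKM in WT, and neighbours among these 3 overlapped within 1 SD in either genotype. Neurod1, Scg3, Isl1 and Pax6 were the lowest, at 0.838, 0.807, 0.288 and 0.0578 RPKM in mutants and 1.59, 0.975, 0.286 and 0.0533 RPKM in WT. Of these, Neurod1 and Scg3 overlapped within 1 SD in mutants and not in WT.

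Of 16 tested genes listed as further enteroendocrine transcription factors, 4 fell (Rfx3, Insm1, Foxa2 and Sox4) and 1 rose (Hmx3), with a median log2 fold change of -0.81. Over all genes tested, 17.1% were called lower and 15.4% higher, which is the background for this list and those that follow. Insm1, a zinc finger factor of endocrine differentiation, was at -1.42 (SE 0.33, edgeR adjusted p = 0.00711), and Rfx3 at -0.80 (SE 0.16, adjusted p = 0.00249). Foxa2 was at -1.46 (SE 0.36, edgeR adjusted p = 0.00869). Rfx3, Foxa2 and Sox4 are also expressed outside endocrine cells. Hmx3, at 1.35 (SE 0.34, edgeR adjusted p = 0.0103), was the only factor called higher, and it was not called without WT 3 and 4 (adjusted p = 0.117). Tuft cell markers rose beside it in 9 of 9 tested genes (median 1.58, summed level 281 to 473 CPM in mutants and 113 to 142 CPM in WT), and their part in the level of Hmx3 was not tested. Neurog3, which starts endocrine differentiation, was at 0.799 ± 0.268 CPM in mutants (SD, n = 5) and 1.43 ± 0.266 CPM in WT (SD, n = 4) without a call (edgeR adjusted p = 0.0585). Summing the close pairs left 0 of 18 tested factors called by edgeR, with 7 at an unadjusted p under 0.05, while DESeq2 over 9 libraries called 5 and the random-block fit called 2.

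Among 16 other granule cargo and processing genes, 2 fell, 1 rose and 13 were not called, with a median of -0.02. Ptprn2, a membrane protein of dense-core granules, fell by 1.71 on the log2 scale (SE 0.29, edgeR adjusted p = 0.00114), and Furin, the convertase of the constitutive pathway, fell by 0.31 (SE 0.08, adjusted p = 0.0115). Atp6ap2, a subunit partner of the proton pump, rose by 0.58 (SE 0.10, adjusted p = 0.00109). When close pairs were summed, Ptprn2 and Atp6ap2 were called (edgeR adjusted p = 0.0279 and 0.0448) and Furin was not (0.233). Furin also missed the threshold in the random-block fit (limma adjusted p = 0.0581) and without WT 1 and 2 (edgeR adjusted p = 0.0595). The convertase Pcsk2 and its chaperone gene Scg5 were at 0.20 (SE 0.42) and -0.56 (SE 0.34) without calls. Of 19 regulated exocytosis genes, 7 fell and 0 rose, with a median of -0.33. They included the calcium sensor Syt7 at -2.11 (SE 0.19, edgeR adjusted p = 1.51e-05) and the small GTPases Rab3d at -1.20 (SE 0.15, adjusted p = 0.000137) and Rab27a at -0.93 (SE 0.13, adjusted p = 0.000297). Rab3d is also the Rab of pancreatic zymogen granules, and Rab27a is expressed in several immune cells. In the fit to summed pairs 4 of the 7 were called, among them Syt7, Rab3d and Rab27a (edgeR adjusted p = 0.00528, 0.013 and 0.0233).

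**Figure D4:**
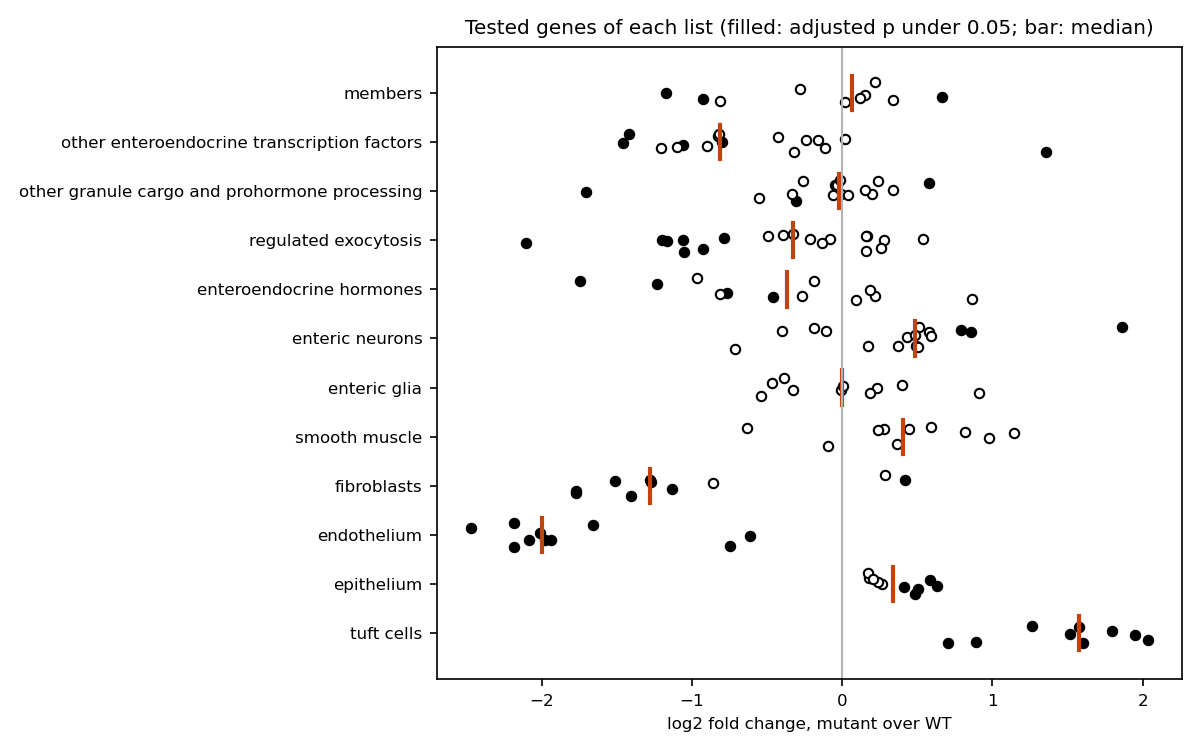
Log2 fold change, mutant over WT (x axis), of each tested gene of 12 lists (rows); filled points have an edgeR adjusted p under 0.05 and bars are list medians. Medians run from -2.0 for endothelium to 1.58 for tuft cells, with the 10 genes at 0.07. Pancreatic lists are not drawn.

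The hormone genes differed from each other. Of 12 tested, 4 fell, 0 rose and 8 were not called, with a median of -0.37. Tph1, the serotonin-making enzyme of enterochromaffin cells, held 6.11, 7.96, 9.16, 3.89 and 3.35 CPM in mutants 1 to 5, against 18.2, 20.6, 21.9 and 21.5 CPM in WT 1 to 4 (log2 fold change -1.75, SE 0.26, edgeR adjusted p = 0.000513). Like Chga, it was lowest in mutants 4 and 5. Cck, cholecystokinin, averaged 25.5 ± 3.64 CPM in mutants (SD, n = 5) and 43.5 ± 1.42 CPM in WT (SD, n = 4), at -0.77 (SE 0.10, edgeR adjusted p = 0.000222). Sct, secretin, was at -0.46 (SE 0.11, adjusted p = 0.00785) and galanin, Gal, at -1.23 (SE 0.24, adjusted p = 0.00216). Gip was at 52.0 ± 10.8 CPM in mutants and 48.8 ± 2.33 CPM in WT (SD, n = 5 and 4), a log2 fold change of 0.09 (SE 0.13), and Sst at -0.19 (SE 0.09), both without calls. In the fit to summed pairs Cck and Tph1 were called (edgeR adjusted p = 0.0156 and 0.0192), and Gal and Sct were not (0.0561 and 0.119).

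**Figure D5:**
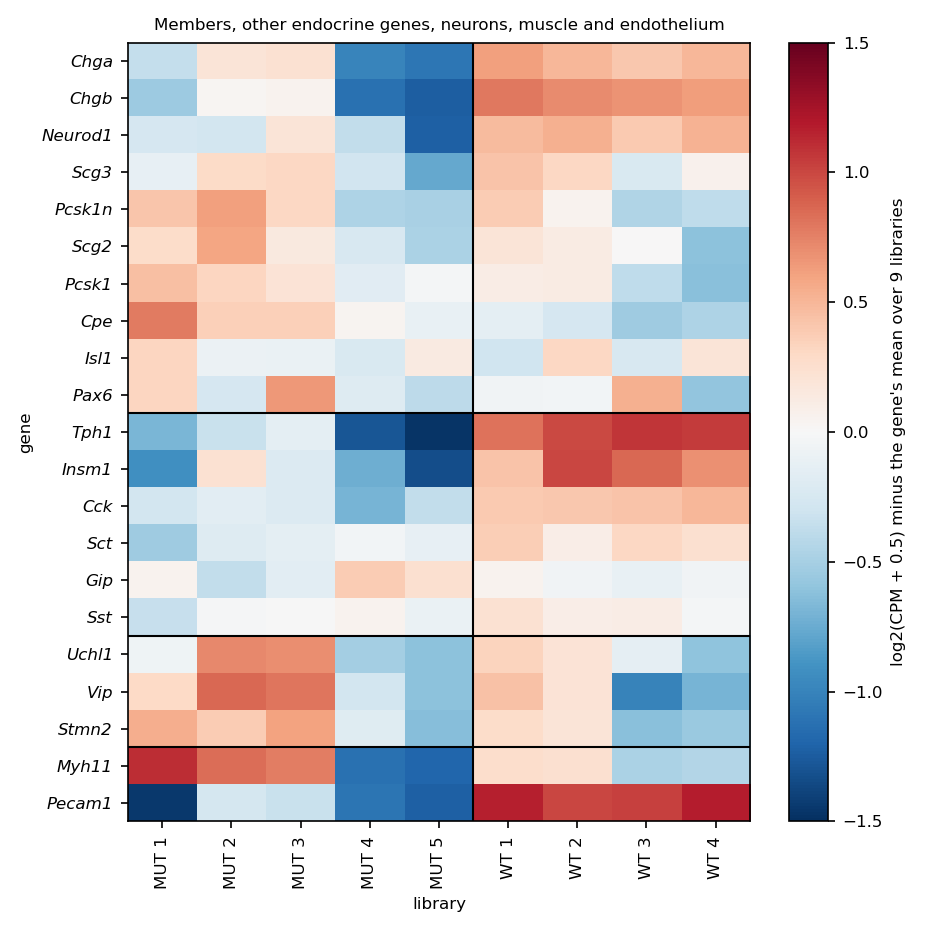
Level of each gene (rows) in each library (columns, mutants left of WT) as log2(CPM + 0.5) minus the gene's mean over 9 libraries, red high and blue low; the blocks are the 10 genes, other endocrine genes, neuronal genes, and muscle with endothelium. Chga, Chgb and Tph1 are lowest in mutants 4 and 5, and Pcsk1n, Stmn2, Vip and Uchl1 lie below their means in mutants 4 and 5 and in WT 3 and 4. The neuronal genes shown were picked because they move with the members, and not all of their list did so. Map1b and Ncam1, not drawn, averaged 7.34 and 3.97 CPM in WT 1 and 2, and 7.25 and 3.98 CPM in WT 3 and 4.

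Markers of other cells that can express the 10 genes were counted beside them. In the islet list, 6 of 8 tested genes fell, and 4 were called lower when close pairs were summed. Ins1, Ins2, Ppy and G6pc2 had 0 reads in all mutants, against 447, 1628, 158 and 35 reads over the 4 WT libraries. Slc30a8 was also at 0 in mutants but had 3 reads in all of WT, too few to show a difference. Ins2 held 9.08, 7.01, 41.1 and 36.2 CPM in WT 1 to 4. Chga averaged 76.8 CPM in WT 1 and 2 and 71.0 CPM in WT 3 and 4, Chgb 100.3 and 93.8, and Neurod1 4.42 and 4.29. The WT pairs also differed in neuronal and muscle genes, and the part of islet cells in these levels was not tested. The whole islet list summed to 843 to 1213 CPM in mutants and 763 to 975 CPM in WT, mostly from Slc2a2, which enterocytes also express.

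In the enteric neuron list, 3 of 16 tested genes rose and 0 fell (median 0.49). Of the 3, Chat was called when close pairs were summed (edgeR adjusted p = 0.0287), while Prph (0.0937) and Stmn3 (0.19) were not. The summed level of the list was 43.2 to 92.3 CPM in mutants and 44.0 to 68.5 CPM in WT. Between the close pairs of a genotype it moved with Scg2, Scg3, Pcsk1, Pcsk1n and Cpe, and between the mutant pairs also with Chga, Chgb and Neurod1. Each genotype gave a single contrast of pairs. Mutant 1, outside the pairs, held 79.7 CPM of the neuron list, less than the mean of mutants 2 and 3. It held the most Cpe and the most Pcsk1 of all libraries, at 87.3 and 20.2 CPM. Cpe, the member called higher, averaged 64.9 CPM in mutants 2 and 3, 49.6 CPM in mutants 4 and 5, 44.1 CPM in WT 1 and 2 and 35.8 CPM in WT 3 and 4. The neuron list averaged 90.8 CPM in mutants 2 and 3 and 45.1 CPM in mutants 4 and 5, and 66.5 CPM in WT 1 and 2 and 44.6 CPM in WT 3 and 4. The same pairs stood at 818 and 276 CPM, and at 517 and 313 CPM, for the smooth muscle list, in which edgeR and DESeq2 called 0 of 10 genes (1 at an unadjusted edgeR p under 0.05). Mutant 1 held the most of the smooth muscle list, at 947.5 CPM. None of the neuronal genes listed was at 0 in all libraries of a genotype. Endothelial genes fell in 10 of 10 (summed level 42.9 to 101.0 CPM in mutants and 266.9 to 301.3 CPM in WT), fibroblast genes fell in 7 of 10 and rose in 1, epithelial genes rose in 5 of 10, and tuft cell genes rose in 9 of 9. When close pairs were summed, edgeR called 7 endothelial genes lower, 2 epithelial genes and 8 tuft cell genes higher, and 0 fibroblast genes, of which 8 had an unadjusted p under 0.05. Of 10 glial genes edgeR and DESeq2 called 0, with 1 at an unadjusted edgeR p under 0.05. The part of these cell types in the levels of the 10 genes was not tested.

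The genes with the pattern most like that of Chga were found by the root mean square difference of centred log2(CPM + 0.5) over the 9 libraries, among 14032 genes whose mean reached 1 CPM. They were Trp53i11 (0.107), Sparc (0.114), Kctd17 (0.124), Jade2 (0.130) and Fhl1 (0.134), of which Jade2 alone was called (log2 fold change -0.91, SE 0.23, edgeR adjusted p = 0.0105). Chgb ranked 41 at 0.180 and Neurod1 247 at 0.269, while Cpe ranked 12192 at 0.837. These libraries share 2 genotypes and the close pairs, so few independent values lie behind these ranks.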

How the data were processed

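The deposited table holds raw, unnormalized read counts by gene for 9 libraries, as made by the authors. The labels' protocols give TRIzol extraction, poly(A) selection and random priming with dTTP in the second strand, so strand is not marked and a gene's reads mix with those of an antisense partner. The submitters' processing notes name the tools HISAT2 2.0.5 and featureCounts 1.5.0-p3. How reads were assigned to strands and shared genes, and with which annotation release, is not given in the sources used here. Coordinates are those of the deposited table: all 10 genes had the same start and end in GENCODE M21 (GRCm38), although the notes name mm39 and human builds. The gene length used for RPKM is the deposited value (other unit: bases).

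Counts were tested in R 4.3.3 with edgeR 4.0.16 (TMM scaling, default filter, robust quasi-likelihood, genotype as the only term, 15416 genes), with Benjamini-Hochberg adjusted p-values and 0.05 as the threshold. Fold changes are mutant over WT, with the SE taken as the coefficient over the square root of the test statistic. CPM use TMM-scaled totals. The edgeR steps were tested on simulated counts of independent libraries, so that check does not cover dependence within close pairs.

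The members and lists were chosen with earlier results of these data known. Named genes are the 10 members, up to 4 called genes per list by smallest p, islet and neuron genes that move with the members, and the 5 genes most like Chga. Sox4, Sst, Gip, Scg5, Pcsk2, Neurog3, Slc2a2 and the remaining islet genes were named after their values were seen. A few genes covered by this rule are left out here. The 25 alternatives covered scaling, filters, DESeq2 1.42.0, limma 3.58.1 voom, sva 3.50.0, mouse number, single libraries and close pairs. The floor of 3 reads covers counting error only.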

Additional observations from a re-analysis of the deposited data

Results flagged for a closer look

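Hmx3, the only further transcription factor called higher in mutants, had 1 WT library that stood apart: WT 2 held 3.42 CPM, against 1.71, 1.48 and 1.52 CPM in WT 1, 3 and 4. No library of the 10 members stood apart in this way within its genotype. The rule looks for a single library apart from the rest, so a close pair that lies apart together can hardly be flagged. Chance gives such a single library in some of the groups examined.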

How the results depend on the processing

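Over all genes, the number called was 5003, against 1558 when close pairs were summed and 2816 with the close pair as a random block, and it was 4075 to 4889 when single libraries were left out. It was 3426 without WT 3 and 4, 4148 without WT 1 and 2, and 6304 with 1 surrogate variable, so the background of the member counts moved too. Of the 10 members, 3 were called, against 0 with close pairs summed, 0 without WT 3 and 4 (3 at an unadjusted p under 0.05 in each), 2 without WT 1 and 2, 5 with 1 surrogate variable, and 2 to 4 without single libraries. Chga, at -0.81 without a call, was called with relative log expression factors (-0.82), a filter of 1 CPM in 4 libraries (-0.82), no robust dispersion (-0.81), DESeq2 (-0.82), voom with sample quality weights (-1.3), the random block (-0.92), 1 surrogate variable (-0.92) and acinar and immunoglobulin genes left out (-0.82). It was also called without mutants 2 and 3 (-1.29) and without mutants 4 and 5 (-0.46), and spanned -0.98 to -0.67 without single libraries, with calls only without mutant 2 or mutant 3. Calls were lost for Chgb with pairs summed (-1.18), without WT 1 and 2 (-1.12) and without WT 3 and 4 (-1.22), for Cpe with pairs summed (0.75) and without WT 3 and 4 (0.52), and for Neurod1 with pairs summed (-0.91), the random block (-1.02), without WT 1 and 2 (-0.91) and without WT 3 and 4 (-0.95), and over -1.13 to -0.73 without single libraries, where WT 2 and WT 4 each ended it. Pcsk1, at 0.34 without a call, was called without WT 1 and 2 (0.70) and with 1 surrogate variable (0.34), and stood at 0.06 without WT 3 and 4 (adjusted p = 0.851) and 0.21 without WT 4 alone (adjusted p = 0.417). Members that were never called changed sign: Scg2 in voom with quality weights (-0.14), without mutants 2 and 3 (-0.07), without WT 3 and 4 (-0.06) and over -0.01 to 0.27 without single libraries, Scg3 without mutants 4 and 5 (0.01) and without WT 1 and 2 (0.02), Pcsk1n in voom (-0.18), without mutants 2 and 3 (-0.06) and without WT 3 and 4 (-0.09), Isl1 with library totals alone (-0.04), without WT 3 and 4 (-0.01) and over -0.12 to 0.19, and Pax6 in voom (-0.21), without mutants 2 and 3 (-0.12) and over -0.22 to 0.51. Fits with fewer libraries or summed pairs rest on fewer samples, and other causes were not tested. Of 650 counts of called genes in the context lists under alternatives, 51 moved by over 1.5 times, most often with close pairs summed or a pair left out.

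Same-numbered mutant and WT libraries correlated at 0.0362, 0.136, -0.135 and 0.117 in their deviations from the group means, and only number 2 correlated best with its own number. Such deviations largely follow the close pairs, so they cannot settle whether mouse numbers 1 to 4 pair the genotypes. With the replicate block, 3924 genes and 4 members were called, Pcsk1 was called (0.41, edgeR adjusted p = 0.0398), Isl1 was at -0.01 and Chga at -0.74 without a call. Depth limits Isl1 and Pax6, with at most 26 reads in a library.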

Other observations

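Tph1, which makes serotonin, also stood lower in mutants relative to Chga. There were 0.152, 0.134, 0.151, 0.150 and 0.139 Tph1 reads per Chga read in mutants 1 to 5, against 0.227, 0.280, 0.319 and 0.292 in WT 1 to 4. Both Chgb and Tph1 per Chga were therefore narrow among mutants and lower than in every WT library, while Cpe per Chga was higher. These ratios were chosen after their values were seen, are not independent since they share Chga, and were not tested.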
